A study of Mus musculus with 6 samples.

Results

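The 10 mouse genes described here encode proteins that coat, enlarge, bud or empty lipid droplets. They are the perilipins Plin2, Plin4 and Plin5, the CIDE genes Cidea, Cideb and Cidec, the lipase gene Pnpla2 and its inhibitor G0s2, and the budding genes Fitm1 and Fitm2. Their rows were picked by symbol, and the genes were chosen with earlier results of these data known. All 10 were found once each among the 55450 genes of the table. Liver RNA was sequenced from 6 mice of the strain given as C57BL/J, with 1 library per mouse. The 3 knockout (KO) mice were LKB1 fl/fl, with loxP sites flanking part of the gene, and the 3 controls are labelled wild type (WT). Both groups received the Cre-carrying virus AAV8 at 6 weeks of age, and the left liver lobe was taken 4 weeks later, at 10 weeks. The promoter that drives Cre and the cells that recombined are not given in the labels. The comparison asks how the transcripts of these genes differ between KO and WT liver, in a series whose title concerns metabolic reprogramming.

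Hepatocytes store triglyceride and sterol esters in droplets that bud from the endoplasmic reticulum into the cytosol. FIT proteins act in the budding, perilipins cover the droplet surface and govern the access of lipases, and CIDE proteins bring droplets into contact so that they fuse or load lipoproteins. Pnpla2 encodes adipose triglyceride lipase (ATGL), which starts the breakdown of stored triglyceride, and the small protein G0S2 binds and inhibits it. LKB1, encoded by Stk11, is the kinase upstream of AMPK, an enzyme that restrains fat synthesis.

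Libraries held between 47659122 and 56147667 counts. Levels are in CPM, counts relative to library size after TMM normalisation. Stk11 served as the check of the labels. It was at 22.1, 14.4 and 11.4 CPM in KO 1 to 3 and at 66.1, 64.2 and 69.7 CPM in WT 1 to 3. Its log2 fold change was -2.06 ± 0.247 (SE; adjusted p = 0.0167 in the edgeR quasi-likelihood test, up to 0.104 with 1 library left out). KO 1 and WT 1 had 42472 and 29243 counts of Xist and at most 6 of 4 Y-linked genes, whereas the other 4 libraries had at least 6146 Y-linked counts and at most 16 of Xist. The labels do not give this difference. Results are therefore also given for the 4 libraries with Y-linked counts (2 against 2) and for the pair with Xist counts (1 against 1, with no replicate check).

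By the GENCODE M21 annotation of GRCm38, all of the genes are protein-coding. Plin4 (chromosome 17, 56100591 to 56109803) and Plin5 (chromosome 17, 56111601 to 56117596) are neighbours on the minus strand, separated by 1797 bases. Fitm1 (chromosome 14, 55575617 to 55576954) and Cideb (chromosome 14, 55754050 to 55758458) lie 177095 bases apart. The others are Plin2 (chromosome 4, 86648386 to 86670060), Cidec (chromosome 6, 113424634 to 113435760), Pnpla2 (chromosome 7, 141455198 to 141460743), G0s2 (chromosome 1, 193272161 to 193273217) and Fitm2 (chromosome 2, 163466379 to 163472629).

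Upstream sequence from RefSeq (GRCm38.p6) is shown for Plin2, Plin5, Cidec and Fitm1, picked by their values. Plin2 had the highest mean per length in WT, and the difference of Fitm1 depended on the kind of library. The groups of Plin5 and Cidec did not overlap, which held for 32.4% of all genes tested. Cidec and Plin5 each have 2 annotated starts, and the counts join both. For Plin5 only the sequence before the upstream start is shown. Each line runs 5′ to 3′ on the gene's strand. Except for Plin2 and the downstream start of Cidec, it ends at or just before the first annotated transcribed base of the gene. The line for Plin2 runs over its start to the end of a motif. That for the downstream start of Cidec ends before that start, within the annotated span of the gene. Capitals mark CACGTG (an E-box) and AGGTCA on either strand (the half-site of many nuclear receptors, which reads TGACCT on the other strand).
Plin2, chr4:86670058-86670309, minus strand: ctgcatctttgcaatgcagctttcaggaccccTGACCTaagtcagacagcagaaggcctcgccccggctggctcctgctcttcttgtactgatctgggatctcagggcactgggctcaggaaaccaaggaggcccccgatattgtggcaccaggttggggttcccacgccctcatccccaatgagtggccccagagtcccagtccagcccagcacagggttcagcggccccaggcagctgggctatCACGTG
Plin5, chr17:56117597-56117798, minus strand: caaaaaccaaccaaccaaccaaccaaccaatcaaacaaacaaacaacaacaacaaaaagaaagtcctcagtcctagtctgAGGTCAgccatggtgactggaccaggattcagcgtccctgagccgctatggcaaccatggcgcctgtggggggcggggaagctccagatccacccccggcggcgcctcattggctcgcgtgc
Cidec, upstream start, chr6:113435761-113436010, minus strand: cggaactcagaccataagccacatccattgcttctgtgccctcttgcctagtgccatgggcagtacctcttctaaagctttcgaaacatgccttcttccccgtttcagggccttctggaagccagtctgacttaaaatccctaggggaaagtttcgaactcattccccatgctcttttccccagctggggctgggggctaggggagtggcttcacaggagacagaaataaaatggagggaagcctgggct
Cidec, downstream start, chr6:113434765-113435014, minus strand: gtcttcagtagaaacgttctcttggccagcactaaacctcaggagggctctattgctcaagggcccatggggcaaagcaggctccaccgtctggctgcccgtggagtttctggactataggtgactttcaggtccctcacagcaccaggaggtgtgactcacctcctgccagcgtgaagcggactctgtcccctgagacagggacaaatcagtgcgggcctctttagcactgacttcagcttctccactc
Fitm1, chr14:55575424-55575616, plus strand: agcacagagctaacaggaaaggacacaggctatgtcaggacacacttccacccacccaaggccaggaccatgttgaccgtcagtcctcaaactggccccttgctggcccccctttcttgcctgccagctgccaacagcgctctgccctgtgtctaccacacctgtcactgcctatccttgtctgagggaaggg
The search covered 11 windows for 9 of the genes, from 250 bases before to 50 after each start, on both strands. The direct repeat of AGGTCA with 1 base of any kind between the copies, and the cAMP response element TGACGTCA were in 0 of the 11, and in 0.0396% and 1.79% of all 32851 windows. CACGTG was in the Plin2 window alone, across the start, and in 7.15% of all windows. AGGTCA is also contained in the direct repeat and was added after the values were seen. It was in 3 of the 11 windows, that of Plin2 and both of Plin5, and in 16.3% of all. In the line for Plin2 it begins 218 bases before the start, and in that for Plin5 170 bases before the upstream RefSeq start. In the window of the downstream start of Plin5, not shown, it covers bases 14 to 19 after that start.

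Levels can be compared between genes only per length, and for this the CPM was divided by the kilobases of merged exon. In WT liver the 10 genes spanned several orders of magnitude on that scale. Plin2 was highest, at 136 ± 18.2 CPM per kb (SD, n = 3), and Cideb, which acts in the lipid loading of lipoproteins, followed at 121 ± 5.38, with overlapping ranges. G0s2 came next at 26.4 ± 7.29, apart from both neighbours. Pnpla2, Plin5, Fitm1 and Fitm2 formed a group in which each range overlapped the next, at 18.05 ± 1.59, 17.3 ± 2.89, 16.9 ± 9.24 and 12.9 ± 2.16 CPM per kb. Plin4 and Cidec were far below, at 0.425 ± 0.0556 and 0.305 ± 0.0455, without overlap. In KO liver Cideb and Plin2 again led, at 110 ± 21.8 and 105 ± 37.1 CPM per kb, and Plin5, at 38.0 ± 12.3, stood between G0s2 at 40.8 ± 10.6 and Pnpla2 at 32.2 ± 15.1, with ranges that overlapped in turn.

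Cidea (chromosome 18, 67343604 to 67367785), best known from brown fat and fatty liver, was practically undetected. Its counts were 4, 0 and 4 in KO 1 to 3 and 0, 2 and 0 in WT 1 to 3. A count of 0 allows up to 3 counts, which is 0.0540 CPM in KO 2, 0.0591 in WT 1 and 0.0641 in WT 3 for counting error alone. The gene did not pass the filter on low counts, and a difference between the groups was not detectable at this depth. The other 9 genes passed.

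None of these 9 genes passed an adjusted p of 0.05 over all 6 libraries in edgeR, where 3.37% of the 14539 genes tested did (2.15% higher in KO and 1.22% lower). An unadjusted p-value under 0.05 was found for 6 of the 9 (Plin5, Cidec, Pnpla2, G0s2, Fitm1 and Fitm2), against 26.3% of all genes. The KO and WT libraries did not overlap for 2 of the 9, Plin5 and Cidec, both higher in KO, against 32.4% of all genes, 16.9% higher and 15.5% lower. The log2 fold changes ran from -1.76 to 2.63 with a median of 0.51, beside a median of 0.01 over all genes tested, and 5 were positive. Other tools and subsets called some of them: DESeq2 called 3 (Plin5 and Cidec higher, Fitm1 lower; 15.8% of its genes), and limma voom 0 (2.97%).

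Within the 4 libraries with Y-linked counts, 5 of the 9 genes passed the threshold in edgeR, against 33.3% of 14546 genes. Plin5 and Pnpla2 rose and Plin2, Fitm1 and Fitm2 fell, where 17.2% of all genes were called higher and 16.1% lower. Leaving out KO 1 alone called 5 as well, 3 higher (Plin5, Cidec and Pnpla2) and 2 lower (Plin2 and Fitm1), with 30.2% of all genes called. Leaving out KO 2, KO 3, WT 1, WT 2 or WT 3 called 0 of the 9, where 0.578%, 0.233%, 1.75%, 0.0401% and 0.133% of all genes were called. In these bulk samples, fewer cells of a type and less RNA per cell cannot be told apart.

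**Figure D1:**
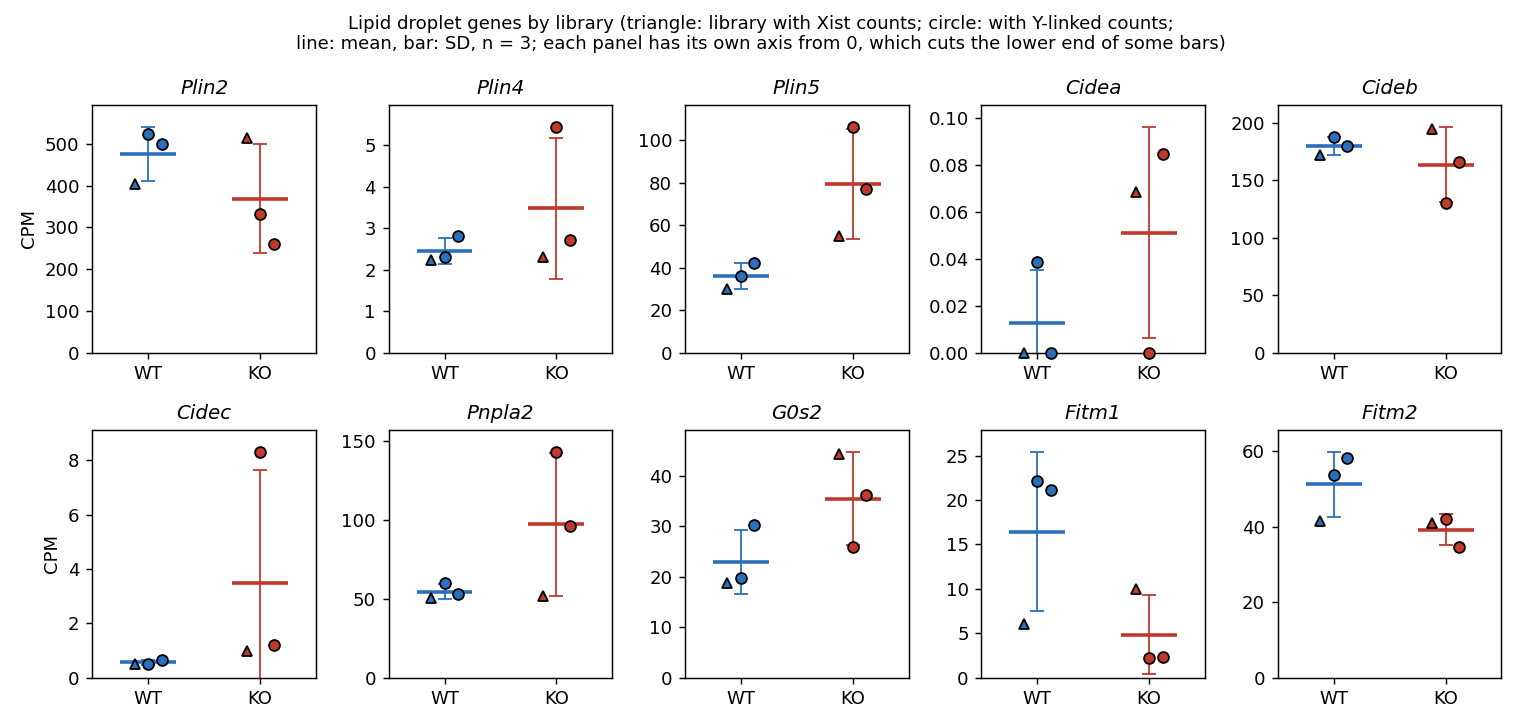
Normalised counts (CPM, vertical axes from 0) of the 10 genes in each of the 6 libraries, WT in blue and KO in red, with the mean and SD of 3 libraries; triangles are the libraries with Xist counts and circles those with Y-linked counts. All 3 KO points of Plin5 and Cidec lie above all WT points, and the triangles and circles of Fitm1 lie in opposite order in the 2 groups.

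Of the 3 perilipins, Plin5 alone had no overlap between the groups. Plin5 is the perilipin of oxidative tissues, which binds ATGL and tethers droplets to mitochondria. It was at 54.8, 106 and 77.3 CPM in KO 1 to 3 and at 30.1, 36.2 and 42.2 CPM in WT 1 to 3. Every KO library was above every WT library, and the lowest KO value was that of the library with Xist counts. The log2 fold change was 1.13 ± 0.257 (SE; adjusted p = 0.0618 in edgeR) over all 6 libraries. It was 1.22 ± 0.182 (adjusted p = 0.00701 in edgeR) among libraries with Y-linked counts, and the log2 ratio in the pair with Xist counts was 0.86. With the Xist state as a term in the model the gene was called as higher (1.11 ± 0.169, adjusted p = 0.0269 in edgeR, where 10.3% of all genes were called). A difference in the effect between the 2 kinds of library did not pass the threshold (interaction adjusted p = 0.552 in edgeR).

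Plin2, which coats droplets in nearly every cell and whose protein is stabilised by stored lipid, was at 513, 332 and 261 CPM in KO and 403, 524 and 501 CPM in WT. KO 1 was as high as the upper WT libraries, whereas KO 2 and KO 3 were the lowest of the 6. Over all libraries the log2 fold change was -0.37 ± 0.276 (SE; adjusted p = 0.429 in edgeR). In the libraries with Y-linked counts it fell by 0.79 on the log2 scale (SE 0.179, adjusted p = 0.0232 in edgeR), while the pair with Xist counts had a log2 ratio of 0.35. The interaction of genotype with Xist state had an adjusted p-value of 0.139 in edgeR and 0.00978 in DESeq2.

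Plin4, a perilipin mainly of adipose tissue and muscle, was low throughout. It had 2.30, 5.44 and 2.72 CPM in KO and 2.23, 2.31 and 2.82 CPM in WT. Only KO 2 lay outside the WT range, and the log2 fold change of 0.51 ± 0.357 (SE, adjusted p = 0.402 in edgeR) became 0.04 without that library. Exons of Plin4 share 17 bases with Hdgfl2 on the opposite strand, and the use of strand in the counting is not stated.

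The make-up of the perilipin transcripts differed between the libraries. Of the summed CPM per kb of Plin1 to Plin5, Plin2 made up 82.6%, 85.0% and 83.4% in WT 1 to 3, and 80.8%, 60.5% and 62.0% in KO 1 to 3. Plin5 made up 10.4%, 9.90% and 11.8% in WT and 14.5%, 32.5% and 30.9% in KO. The share of Plin5 was thus higher in each KO library than in any WT library, and KO 1 was closest to WT. The sum itself overlapped between the groups, at 152 ± 30.7 CPM per kb in KO and 162 ± 19.8 in WT (SD, n = 3). The ratio of Plin2 to Plin5 was 5.57, 1.86 and 2.01 in KO and 7.96, 8.59 and 7.06 in WT, again without overlap. These ratios were formed after the values were seen and were given no test.

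**Figure D2:**
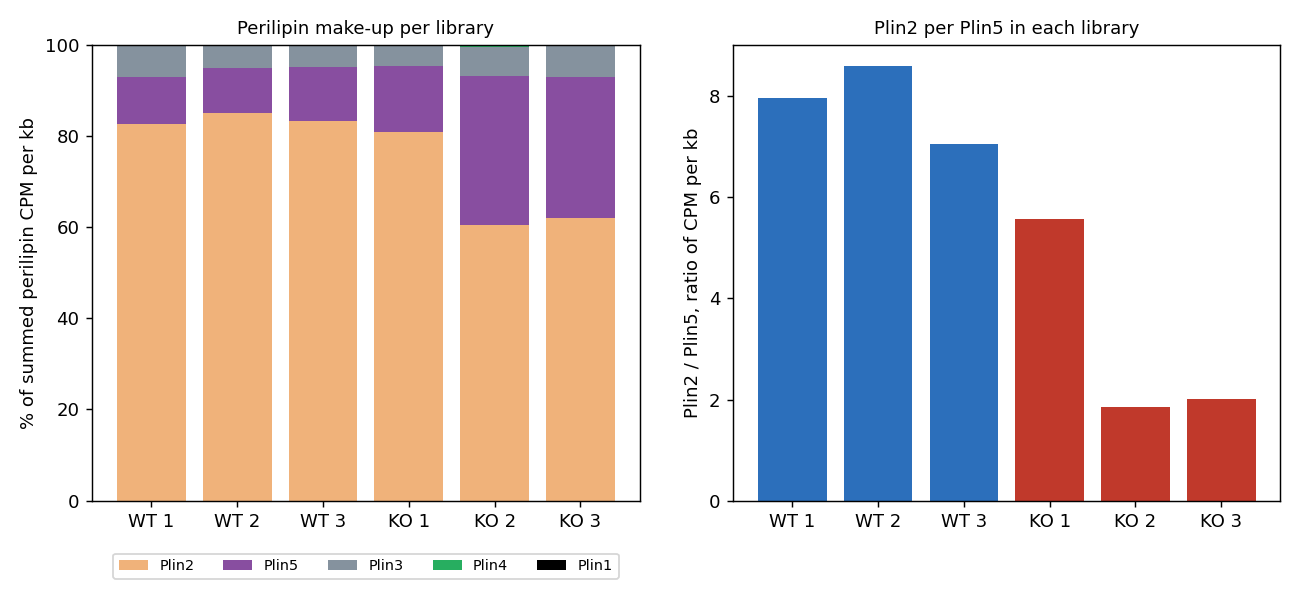
Left, the share (%) of each perilipin gene in the summed CPM per kb of the 5 perilipins in each library; right, the ratio of Plin2 to Plin5 on the same scale, WT in blue and KO in red. Plin5 takes 30.9% to 32.5% in KO 2 and KO 3 against at most 11.8% in WT, and KO 1, at 14.5%, lies between.

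Cidec, whose product (also called FSP27) enlarges droplets in fat cells and in fatty liver, was low in WT and uneven in KO. It was at 0.995, 8.30 and 1.21 CPM in KO and at 0.513, 0.521 and 0.663 CPM in WT, from 57 to 461 counts in KO and 26 to 31 in WT. Each KO library was above every WT library, but KO 2 was far above the other 2. The log2 fold change was 2.63 ± 0.863 (SE; adjusted p = 0.120 in edgeR), and it became 0.97 (adjusted p = 0.205 in edgeR) without KO 2. In the libraries with Y-linked counts it was 3.01 ± 0.910 (adjusted p = 0.0529 in edgeR). The pair with Xist counts had a log2 ratio of 0.84.

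Cideb, the CIDE gene typical of hepatocytes, had the log2 fold change nearest to 0 of the 9 tested genes. It was at 195, 130 and 166 CPM in KO and 172, 188 and 180 CPM in WT. All WT values lay within the KO range, and the log2 fold change was -0.13 ± 0.180 (SE, adjusted p = 0.664 in edgeR). Cideb made up 95.1% to 99.5% of the CIDE transcripts per kb in KO and 99.7% to 99.8% in WT, so Cidec stayed at most 4.86% of the family, in KO 2. Exons of Cideb and Nop9, on the opposite strand, share 1136 bases, and Nop9 had 689 to 1243 counts beside 7237 to 11375 of Cideb. How far reads of one gene were counted for the other was not tested.

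Pnpla2, the ATGL gene, was at 52.1, 143 and 96.4 CPM in KO and at 50.4, 59.8 and 53.4 CPM in WT. KO 2 and KO 3 were above all WT libraries, and KO 1 was within the WT range. The log2 fold change was 0.83 ± 0.337 (SE, adjusted p = 0.176 in edgeR) over all libraries and 0.45 (adjusted p = 0.405 in edgeR) without KO 2. In the libraries with Y-linked counts the gene rose by 1.08 ± 0.206 (adjusted p = 0.0144 in edgeR), and the log2 ratio of the pair with Xist counts was 0.05. The difference between the 2 kinds of library did not pass the threshold (interaction adjusted p = 0.191 in edgeR).

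G0s2, the inhibitor of that lipase, was at 44.4, 26.0 and 36.2 CPM in KO and 18.8, 19.8 and 30.3 CPM in WT. The groups overlapped only through WT 3, which exceeded KO 2. The log2 fold change was 0.63 ± 0.258 (SE; adjusted p = 0.182 in edgeR). The sizes in the subsets were in the opposite order to those of Pnpla2: libraries with Y-linked counts gave a log2 ratio of 0.31, and the pair with Xist counts 1.23 (interaction adjusted p = 0.292 in edgeR). The ratio of Pnpla2 to G0s2 per kb was 0.338, 1.59 and 0.768 in KO and 0.772, 0.870 and 0.508 in WT. KO 1 and KO 2 thus held the lowest and the highest ratio of the 6 libraries, and the group means, 0.898 and 0.716, lay within that spread.

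The budding gene Fitm1 (FIT1), known mainly from skeletal muscle and heart, showed opposite patterns in the 2 kinds of library. It was at 10.0, 2.25 and 2.27 CPM in KO and at 6.09, 22.1 and 21.1 CPM in WT. WT 2 and WT 3 were the highest and KO 2 and KO 3 the lowest, with the pair with Xist counts between them and KO 1 above WT 1. Over all libraries the log2 fold change was -1.76 ± 0.729 (SE, adjusted p = 0.185 in edgeR). In the libraries with Y-linked counts Fitm1 fell by 3.26 on the log2 scale (SE 0.125, adjusted p = 0.000266 in edgeR), whereas the log2 ratio of the pair with Xist counts was 0.71. The interaction of genotype with Xist state was 3.97 ± 0.215 (log2, SE; adjusted p = 0.00343 in edgeR), a test passed by 2.9% of all genes. Fitm1 was the only one of the 9 tested genes past that threshold in edgeR, while 3 of the 9 (Fitm1, Plin2 and Pnpla2) had an unadjusted interaction p-value under 0.05, against 20.9% of all genes. The estimate rests on 1 library of each genotype with Xist counts.

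Fitm2 (FIT2), the form found in most tissues, was at 41.1, 42.0 and 34.6 CPM in KO and at 41.6, 53.8 and 58.1 CPM in WT. The groups overlapped through KO 2 and WT 1. The log2 fold change was -0.38 ± 0.161 (SE, adjusted p = 0.190 in edgeR). In the libraries with Y-linked counts Fitm2 fell by 0.55 (SE 0.129, adjusted p = 0.0259 in edgeR), and the pair with Xist counts had a log2 ratio of -0.02. The ratio of Fitm2 to Fitm1 per kb was 1.00, 4.56 and 3.73 in KO 1 to 3 and 1.67, 0.595 and 0.674 in WT 1 to 3. The groups overlapped, because KO 1 was below WT 1.

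**Figure D3:**
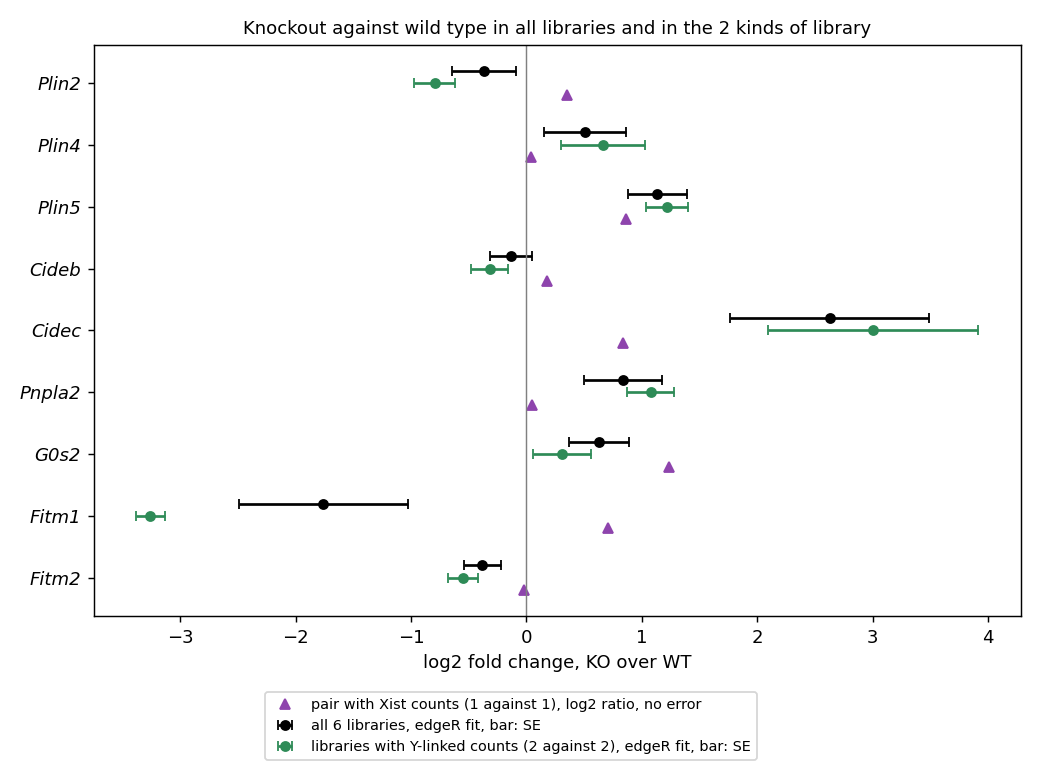
Log2 fold change of KO over WT (horizontal axis) for the 9 tested genes: black, all 6 libraries; green, the libraries with Y-linked counts (edgeR fits, bars are SE); violet triangles, the log2 ratio of the single pair with Xist counts, without error. Plin4, Plin5, Cidec, Pnpla2 and G0s2 lie to the right of 0 in all 3. Fitm1 lies at -3.26 in green and at 0.71 in violet.

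KO 2 had the highest value of the 6 libraries for 4 of the 9 genes (Plin4, Plin5, Cidec and Pnpla2), which was so for 25.1% of all genes tested. The coefficient of variation was larger among the KO than among the WT libraries for 7 of the 9 genes and for 73% of all genes. Its median over the 9 genes was 35.3% in KO and 14.9% in WT, against 21.1% and 12.01% over all genes. Among KO libraries it was largest for Cidec, at 119%, and for Fitm1, at 92.3%.

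The profile of Pnpla2 over the 6 libraries (log2 CPM centred on the gene's mean) was nearest, among the other 8 tested genes, to those of Plin5 and Plin4, with root mean square differences of 0.27 and 0.28. Over 11972 other genes with a mean of at least 1 CPM, the nearest to Pnpla2 were Wdr43, Cast and Cxadr, at 0.06, 0.08 and 0.08. For Plin2 they were Wdr60, Slc27a1 and Fam124a, at 0.07, 0.08 and 0.08. For Cidec the nearest gene, Cdkn1a, was farther away, at 0.30. With 6 libraries many genes can have like profiles, and no test was made.

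Of the other genes of the pathway, 47 in 5 lists, 44 were tested, 1 rose and 2 fell past the threshold, and 15 had an unadjusted p-value under 0.05. Over all genes tested 2.15% rose, 1.22% fell and 26.3% had such a p-value, and the counts of each list below are to be read against these shares. The median log2 fold change of the 44 was -0.13. Of the 44, 4 were higher in every KO library than in any WT library and 14 were lower, against 16.9% and 15.5% of all genes tested. In triglyceride and sterol ester synthesis (14 tested, 1 higher, 0 lower, median -0.09) Gpat4, which makes the first intermediate of glycerolipids, rose. It was at 368, 425 and 591 CPM in KO and 117, 170 and 159 CPM in WT (log2 fold change 1.63 ± 0.246, adjusted p = 0.0277 in edgeR). Dgat1, which completes triglyceride, was higher in each KO library, at 19.6, 40.7 and 32.6 against 13.7, 16.03 and 14.6 CPM (adjusted p = 0.0696 in edgeR). In this list 3 genes were higher in every KO library than in any WT library (16.9% of all tested) and 3 were lower (15.5%). Besides Gpat4 and Dgat1, the other higher one was Agpat2 (log2 fold change 0.45, adjusted p = 0.158 in edgeR), which did not pass. The lower ones, named after their values were seen, were Gpam, which acts at the step of Gpat4 (log2 fold change -0.94, adjusted p = 0.0873 in edgeR), Dgat2, which acts at that of Dgat1 (-0.50, adjusted p = 0.116), and the sterol ester gene Soat2 (-0.56, adjusted p = 0.151), none of which passed.

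Among the other lipolysis genes (9 tested, 0 higher, 1 lower, median -0.21) Lipe, the hormone-sensitive lipase gene, fell. It was at 7.46, 6.52 and 6.05 CPM in KO and 10.8, 12.2 and 11.5 CPM in WT (log2 fold change -0.79 ± 0.142, adjusted p = 0.0405 in edgeR). Ces1d, a carboxylesterase that hydrolyses stored triglyceride, was at 310, 40.7 and 79.9 CPM in KO and at 876, 953 and 864 CPM in WT, without overlap, but did not pass (adjusted p = 0.0836). How far its counts depend on the division of reads among similar carboxylesterase genes was not tested. Abhd5, the activator of ATGL also called CGI-58, was at 25.1, 32.6 and 34.6 CPM in KO and 26.1, 34.1 and 46.5 CPM in WT (adjusted p = 0.597 in edgeR).

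Among the other droplet proteins (11 tested, 0 higher, 1 lower, median 0.03) Hsd17b11, a droplet-bound dehydrogenase, fell. It was at 108, 60.9 and 74.6 CPM in KO and 173, 205 and 192 CPM in WT (log2 fold change -1.23 ± 0.229, adjusted p = 0.0435 in edgeR). Aup1, a droplet protein of ubiquitin-dependent degradation, had an adjusted p-value of 0.269. The calls of Gpat4, Lipe and Hsd17b11 were each lost when any 1 library other than KO 1 was left out, with adjusted p-values in edgeR up to 0.142, 0.211 and 0.210. In the fit with the replicate number as a block they were lost as well.

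Of the genes of very-low-density lipoprotein (VLDL) assembly (6 tested, 0 called, median -0.16), Tm6sf2, which helps to lipidate the particle, was at 43.4, 65.7 and 82.6 CPM in KO and 45.1, 20.0 and 16.3 CPM in WT. Its adjusted p-value was 0.130 over all libraries, and the interaction with Xist state passed (log2 -2.08 ± 0.283, adjusted p = 0.0265 in edgeR). Mttp, which transfers lipid to the particle, had 306, 262 and 259 CPM in KO and 328, 374 and 356 CPM in WT, without overlap (adjusted p = 0.201). Of the 4 genes of peroxisome proliferator-activated receptors (PPARs) and their partner, whose targets include several droplet genes, 0 passed (median -0.54). In this list 3 genes were lower in every KO library than in any WT library (15.5% of all tested), Ppara and Rxra among them. Ppara was at 65.1, 19.3 and 30.5 CPM in KO and 95.4, 98.5 and 78.3 CPM in WT (adjusted p = 0.125 in edgeR). Rxra, the partner, had an adjusted p of 0.183.

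**Figure D4:**
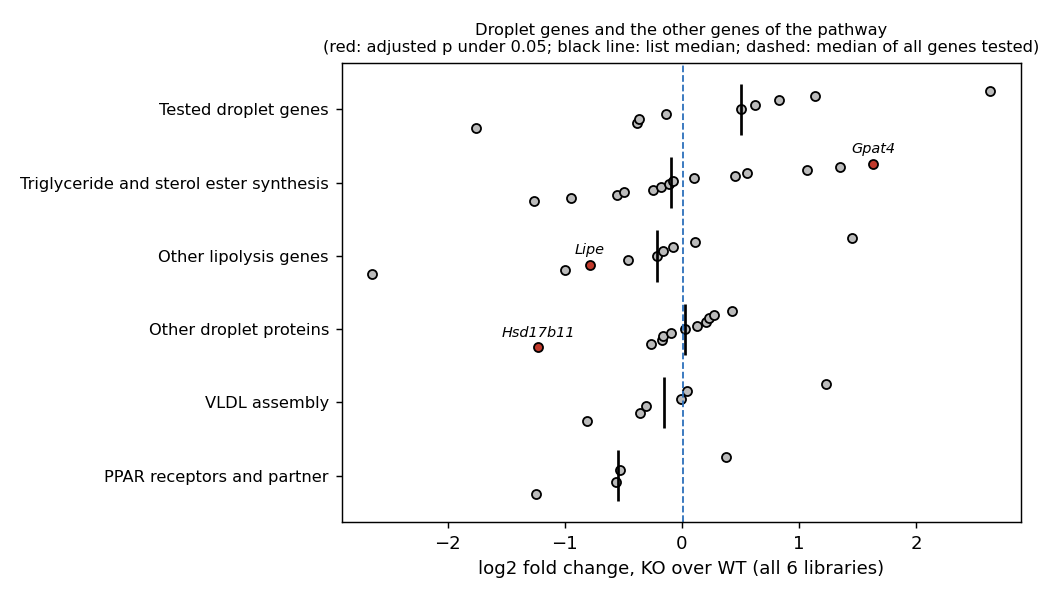
Log2 fold change of KO over WT over all 6 libraries (horizontal axis) for each tested droplet gene and for the genes of 5 pathway lists; red points passed an adjusted p-value of 0.05, black lines are list medians and the dashed line is the median of all genes tested. Gpat4, at 1.63, Lipe, at -0.79, and Hsd17b11, at -1.23, are the red points, and each list spreads to both sides of 0.

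Markers of other cells were read beside these values. Of 6 adipocyte markers, Lep and Retn were at 0 in all libraries, Adipoq, Plin1 and Cfd reached at most 0.064, 0.021 and 0.270 CPM, and the summed level of 2.38 to 6.62 CPM in KO and 5.84 to 6.51 CPM in WT was nearly all Fabp4, which endothelial cells also express. Of 6 skeletal muscle markers, Mb was at 0, and Acta1 and Ckm reached at most 0.079 and 0.020 CPM. The sum of the 6, nearly all Mylpf, was 0.463 to 1.29 CPM in KO and 0.214 to 0.591 CPM in WT. The 6 stellate cell markers summed to 83.4 to 185 CPM in KO and 142 to 299 CPM in WT, and the 6 endothelial markers to 67.2 to 112 CPM in KO and 135 to 185 CPM in WT, without overlap. The 6 macrophage markers summed to 99.8 to 222 and 138 to 189 CPM, and the 6 bile duct markers to 24.95 to 74.9 and 39.6 to 73.1 CPM. None of the markers of these 6 cell types was called in edgeR. The 6 hepatocyte markers, led by Alb, summed to 23262 to 66380 CPM in KO and 73296 to 113805 CPM in WT, without overlap, but without Alb the other 5 summed to 12868 to 22058 CPM in KO and 16232 to 18179 CPM in WT, which overlapped. Alb, Apoa1 and Ttr were lower in every KO library than in any WT library, and Tat, Cps1 and Hnf4a were higher. Of all genes tested, 15.5% were lower and 16.9% higher in that way. Hnf4a was so only narrowly, at 542 CPM in KO 1 and 539 CPM in WT 1 (log2 fold change 0.20, adjusted p = 0.470 in edgeR). Of the 6 only Tat passed the threshold in edgeR, as higher. The part of these shifts in the droplet genes' values was not tested.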

How the data were processed

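Poly(A) RNA of about 20 mg of liver per mouse was sequenced as paired reads of 76 bases, per the labels' protocols. The deposited table holds expected counts per gene from RSEM. The submitters' processing notes name bcl2fastq 2.17, cutadapt 1.18, STAR 2.7.0f, RSEM 1.3.1 and the build mm9. All 55450 gene identifiers occur in GENCODE M21 (GRCm38), which gave the positions and exon lengths, and the use of strand is not given in the sources used here. Of the values, 4.93% to 5.47% per library were not whole and were rounded.

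Genes were kept by edgeR's filterByExpr (14539 of 55450), normalised by TMM and tested with edgeR 4.0.16 (quasi-likelihood, R 4.3.3), with Benjamini-Hochberg adjustment over all genes and a threshold of 0.05. The standard error is the log2 fold change divided by the root of the F statistic. Ratios within a subset add 0.1 CPM. The Xist state entered an interaction model. Alternatives were RLE and plain library sizes, other filters, DESeq2 1.42.0, limma 3.58.1 voom, a replicate block, an Xist term, the libraries with Y-linked counts and leaving out each library. The fit was also run on simulated counts with changes set in chosen genes. Apart from these changes the libraries were drawn independently, so differences shared by many genes of a library were not covered. Total counts per library were 47659122 to 56147667. The floors given for counts of 0 cover counting error only, whereas the SDs and standard errors also include the spread between libraries. The labels do not tell more than separate mice per group. The p-values set the difference between the groups against the spread between these samples within the groups.

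The genes and lists were chosen with earlier results of these data known. Named are all 10 genes, Stk11, Plin1 and Abhd5, of each list those past the threshold (up to 4) or the 2 with the smallest adjusted p, the 3 nearest profiles of Plin2 and Pnpla2 and the nearest of Cidec, of which the others are not reported here. The motif AGGTCA, the perilipin ratios and the names of Agpat2, Gpam, Dgat2 and Soat2 were added later. Protein sequences were not used here.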

Additional observations from a re-analysis of the deposited data

Results flagged for a closer look

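The KO against WT difference of Fitm1 differed between the kinds of library, with an adjusted p-value of 0.00343 for the interaction of genotype with Xist state in edgeR. KO 1 was above WT 1 (10.0 against 6.09 CPM), and KO 2 and KO 3 (2.25 and 2.27 CPM) were below WT 2 and WT 3 (22.1 and 21.1 CPM). Over 6 alternatives the interaction was 3.93 to 4.03 on the log2 scale, and the adjusted p-value ran from 1.63e-23 to 0.00572.

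Tm6sf2 was marked for the same reason, with an interaction of -2.08 ± 0.283 (log2, SE) and an adjusted p-value of 0.0265 in edgeR. It was at 43.4 CPM in KO 1 and 45.1 CPM in WT 1, whereas KO 2 and KO 3 (65.7 and 82.6 CPM) were above WT 2 and WT 3 (20.0 and 16.3 CPM). Each interaction rests on 1 library of each genotype with Xist counts, and what else sets those 2 libraries apart was not tested. Stk11 also fell less in the pair with Xist counts, with a log2 ratio of -1.57 against -2.37 in the libraries with Y-linked counts. Its interaction had an adjusted p-value of 0.164 in edgeR. How far the extent of Stk11 loss, rather than the Xist state, goes with these differences was not tested.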

How the results depend on the processing

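The droplet genes called higher, 0 over all 6 libraries, were 1 with no filter on low counts (Plin5), 2 in DESeq2, 1 with the Xist term, 2 using only Y-linked libraries (those with Y-linked counts) and 0 to 3 with 1 library left out. Those called lower, also 0, were 1 in DESeq2, 3 using only Y-linked libraries and 0 to 2 with 1 library left out. The RLE and plain library sizes, the filter of 1 CPM in 3 libraries, voom and the replicate block called 0. Over all genes, 490 calls became 771 with no filter, 2288 in DESeq2, 1504 with the Xist term and 4847 using only Y-linked libraries. With 1 library left out they ran from 6 (without WT 2) to 4473 (without KO 1), with 86, 35, 262 and 20 without KO 2, KO 3, WT 1 and WT 3. With library sizes alone, 74.4% of the calls were higher in KO, against 63.9%, and Lipe lost its call (adjusted p = 0.0624 in edgeR). The interaction called 1 droplet gene and 421 genes in all. It called 4 (Fitm1, Plin2, Pnpla2 and G0s2) and 1607 with no filter, and 2 (Fitm1 and Plin2) and 968 in DESeq2. With 1 library left out, the log2 fold change of Cideb ran from -0.29 to 0.0138 (without KO 2), and that of Abhd5 from -0.39 to 0.031 (without WT 3). The cause of these shifts was not tested.

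The replicate block left 105 genes called and 0 of the droplet genes. The deviations of same-numbered libraries correlated at 0.178, 0.0443 and 0.0679, and KO 3 and KO 2 correlated best with other numbers (0.203 with WT 2 and 0.120 with WT 3), so the numbers were not taken to pair the mice. KO 1 and WT 1, which correlated best with each other, also share the Xist state. Depth limits Cidea, and the WT values of Cidec rest on 26 to 31 counts.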
